A study of Rattus norvegicus with 16 samples.

Results

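The 31 genes described here encode the proteins of myelin and of the mature oligodendrocyte, the glial cell that wraps axons in the brain. They were chosen by name, with earlier results of these data known. All 31 were found among the 33294 gene symbols of a table of read counts for 16 rat brain libraries. All 31 also passed the filter on low counts that left 17856 genes for testing. The tissue is labelled central amygdala and came from adult offspring exposed around birth to fentanyl, an opioid, or to saline. It was taken 1 day after the last session of IVSA, an abbreviation the sources leave unexplained. There were 6 males and 2 females in each exposure, and the labels name no group without these sessions. The labels do not give the strain, the dose, the litters or the drug of the sessions, so the p-values rest on the spread among the animals sampled and take no account of littermates. Library names carry numbers, which run from 1 to 6 in fentanyl males and are 1 and 2 in fentanyl females. In saline males they are 1, 2 and 9 to 12, for replicates 1 to 6 in that order, and in saline females 10 and 11. What the numbers stand for is not stated, and they are used here only as labels that divide the saline males into a set of 2 and a set of 4.

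Myelin is a stack of lipid-rich membrane layers laid around an axon, held together by a small number of very abundant proteins and fed by dedicated enzymes of galactolipid synthesis. Oligodendrocytes arise from precursor cells under the transcription factors Olig1, Olig2 and Sox10, and Myrf is then needed to switch on myelin genes. In the forebrain they are densest in fibre tracts and sparser in grey matter.

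Total counts per library ranged from 12879701 to 22426428, and mitochondrially encoded genes took 8.44% to 17.7% of them, the highest share being that of fentanyl male replicate 2. Values below are in CPM, which gives a gene's read count relative to the scaled size of its library. The count of a member was never below 203 in any library, so counting error is small beside the spread between animals. Transcript lengths were not used, and levels are therefore compared between libraries and not between genes. Markers of the labelled tissue were present in every library, with 11.2 to 33.3 CPM of Prkcd, 41.4 to 206 CPM of Sst and 0.521 to 17.2 CPM of Crh, together with markers of striatal neurons such as Ppp1r1b at 592 to 2849 CPM. The choroid plexus gene Ttr, a marker of another source of some members, had no count in 14 of 16 libraries and at most 0.168 CPM.

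The 31 genes moved together from library to library, and the libraries at both ends belonged to both exposures. Saline male replicate 1 and fentanyl female replicate 2 held the lowest value for 17 and 14 of the 31 genes. Saline male replicate 6 had the highest value for 16 genes, fentanyl male replicate 2 for 8, saline male replicate 5 for 5 and saline female replicate 2 for 2. No other library was at either end for any member. In 5 libraries (saline male replicates 4 to 6 and both saline females) all 31 genes lay above their own mean over the 16 libraries, and the same held in fentanyl male replicates 3 and 6. In saline male replicates 1 to 3 and fentanyl female replicate 2 all 31 lay below it. Because whole tissue was measured, fewer oligodendrocytes and less RNA per oligodendrocyte cannot be told apart.

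**Figure D1:**
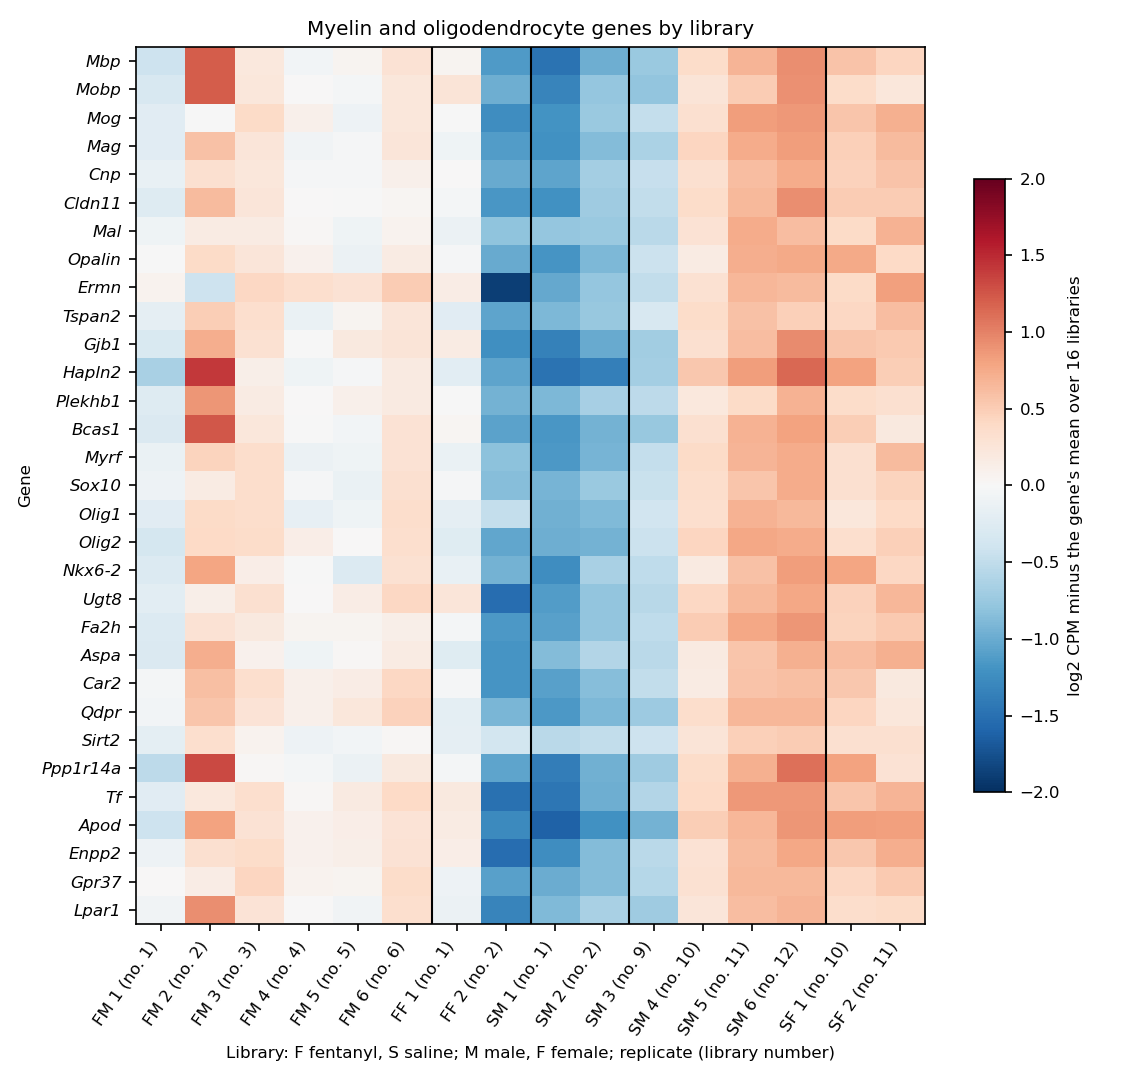
Each row is 1 of the 31 genes and each column 1 library, with colour giving log2 CPM minus the gene's mean over the 16 libraries, and black lines divide the groups and the 2 sets of saline males. Columns are nearly uniform in colour from top to bottom, with blue in fentanyl female replicate 2 and saline male replicates 1 to 3, and a mixed column in fentanyl male replicate 2.

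Mean log2 CPM over the 31 genes was 6.67, 6.96, 7.23, 8.13, 8.45 and 8.58 in saline male replicates 1 to 6. In fentanyl males it lay between 7.58 and 8.36, inside the range of the saline males. The 2 saline females had 8.29 and 8.30, and the 2 fentanyl females 7.77 and 6.70. The members took 0.749% of all counts in saline male replicate 1 and 3.45% in saline male replicate 6, the 2 extremes. Mbp, the basic protein that binds the inner faces of the myelin membrane together, supplied 38.4% to 51.1% of the members' reads in each library.

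Within groups, the members varied more between animals than the typical gene. The standard deviation of log2 CPM within the 4 groups had a median of 0.61 over the 31 genes, against 0.29 over all genes tested. Among the members it was smallest for Sirt2, a deacetylase that neurons also express (0.35), and largest for Hapln2, a link protein of the matrix at nodes of Ranvier (0.89).

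Whether adult levels of these transcripts differed by perinatal exposure was tested first over both sexes, with 8 animals in each exposure. None of the 31 genes passed (adjusted p under 0.05), where 0.0784% of all genes tested did by edgeR's quasi-likelihood test, and 0 had an unadjusted p under 0.05 against 7.27% of all genes. DESeq2 and limma voom with quality weights also called 0 members, and 0.395% and 5.63% of all genes. The median log2 fold change of the members was -0.16, with 28 of 31 below 0, beside -0.01 over all genes tested. With 1 library left out this median ran from -0.29 (without saline male replicate 1, 31 of 31 below 0) to -0.03 (without fentanyl female replicate 2, 18 of 31 below 0). All 31 had overlapping ranges in the 2 exposures, and over all genes 0.0616% lay wholly higher and 0.0392% wholly lower.

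Mog, a glycoprotein of the outermost myelin layer, had the smallest p of the members. It ranged from 34.3 to 106 CPM (median 81.1) in fentanyl and from 35.3 to 149 CPM (median 111) in saline offspring (n = 8 each). Its log2 fold change, with the standard error, was -0.33 ± 0.29 and its adjusted p was 0.83. The saline group held both the library at 35.3 CPM and that at 149 CPM, and fentanyl offspring lay between 34.3 and 106 CPM. Mag, the adhesion glycoprotein of the membrane next to the axon, spanned 181 to 594 CPM (median 382) in fentanyl and 171 to 705 CPM (median 541) in saline, with a log2 fold change of -0.23 ± 0.30. For Mobp, a second basic protein of compact myelin, the spans were 1558 to 7098 CPM (median 3335) and 1221 to 5776 CPM (median 3613), and its log2 fold change of 0.09 ± 0.32 was the highest of the 31. Myrf, the factor that switches on myelin genes, reached from 131 to 314 CPM (median 216) in fentanyl and from 104 to 387 CPM (median 297) in saline, with a log2 fold change of -0.17 ± 0.27. For Mag, Mobp and Myrf the standard error was larger than the difference, and for Mog it was close to it.

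With saline males 1 and 2 left out, the median over both sexes was -0.45 with all 31 below 0, and still 0 members passed, where 6.9% of all genes did. With saline males 9 to 12 left out it was 0.22, on the other side of 0, again with 0 members called. Grouped by role, medians in the full set lay close to each other. They were -0.18 for 14 proteins of the sheath, its junctions and its cytoskeleton, -0.17 for 5 transcription factors, -0.16 for 7 enzymes and regulators, -0.15 for the secreted proteins Tf, Apod and Enpp2, and -0.08 for the receptors Gpr37 and Lpar1. The members above 0 were Mobp, Bcas1, which marks myelinating cells (0.03 ± 0.33), and Car2, a carbonic anhydrase (0.02 ± 0.27). Among 52 other genes of mature oligodendrocytes none passed either, with a median of -0.17. The precursor markers (median -0.21, 0 of 18 called) and the cholesterol synthesis genes (median -0.08, 0 of 22) had no call as well. Those under 0.05 before adjustment numbered 2 in the mature list, 4 in the precursor list and 1 in the cholesterol list, where 7.27% of all genes were. Striatal neuron markers lay on the other side, with 21 of 21 above 0 and a median of 0.47, none past the threshold. Of these markers 7 were under 0.05 before adjustment, 33.3% of the list, all of them higher. Their part in the members' values was not tested.

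In males alone, 6 against 6, no member passed by edgeR, DESeq2 or limma voom, which called 0.0392%, 0.17% and 0.47% of all genes. At an unadjusted p under 0.05 by edgeR there were 0 members and 4.13% of all genes. The median of the members was 0.12, and 27 of 31 lay above 0. Car2 had the smallest p, at 228 to 354 CPM (median 277) in fentanyl males and 109.8 to 356 CPM (median 215) in saline males (log2 fold change 0.31 ± 0.28, adjusted p = 0.9998). Saline males spread more widely than fentanyl males for this gene at the low end, while the upper ends were nearly equal (356 and 354 CPM). The direction in males depended on which saline males were used. Without library numbers 1 and 2 the median was -0.21, with 30 of 31 below 0 and 0 called (0.4% of all genes). Without numbers 9 to 12 it was 1.12, with all 31 above 0 and 19 called where 5.47% of all genes were. Both settings share the fentanyl males. No fentanyl library carries a number from 9 to 12. Exposure and number set therefore partly coincide in males and over both sexes. Leaving out saline male replicate 1 alone gave -0.03. With sample quality weights (limma voom) the median in males was -0.12.

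In females, 2 against 2, all 31 genes were below 0 in the fentanyl group, with a median log2 fold change of -0.97 against -0.01 over all genes, but none passed the test. The spread was shared with the males in this fit, and 0% of all genes tested were called. Of the members, 3 had an unadjusted p under 0.05, 9.68% of them against 14.3% of all genes, and DESeq2 and limma voom called 0 (all genes 0.124% and 0%). Aspa, which breaks down the N-acetylaspartate that neurons supply, had the smallest p. It stood at 32.9 and 17.1 CPM in fentanyl females and 60.0 and 63.8 CPM in saline females, with a log2 fold change of -1.31 ± 0.47 (adjusted p = 0.333). Tspan2, a tetraspanin of the oligodendrocyte membrane, had 203 and 115 against 317 and 367 CPM (-1.10 ± 0.43). Mal, a raft proteolipid that sorts myelin components, had 468 and 292 against 665 and 825 CPM (-0.97 ± 0.43). These are the members under 0.05 before adjustment, and in all 3 both fentanyl females lay below both saline females, with replicate 2 the lower.

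Both fentanyl females lay below both saline females for 30 of 31 genes, a pattern that 24.7% of all genes tested showed. Mobp was the exception, at 3681 and 1558 CPM in fentanyl and 3959.5 and 3577 CPM in saline females. The 2 fentanyl females differed strongly from each other. For Ermn, a cytoskeletal protein of oligodendrocytes, replicate 1 had 159 CPM and replicate 2 had 38.7 CPM, the lowest of all libraries, and for Ugt8, the enzyme that makes galactosylceramide, they had 196 and 58.0 CPM. Leaving out fentanyl female replicate 2 gave a median over the members of -0.52, and without replicate 1 it was -1.60. Library numbers were 1 and 2 in fentanyl and 10 and 11 in saline females, so in females exposure and number set cannot be told apart. Astrocyte and microglial markers lay in the same direction as the members (17 of 17 and 18 of 18 below 0, medians -0.48 and -0.49), and striatal markers in the other (21 of 21 above 0, median 0.85). Their part was not tested.

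The test of the difference between the sexes in their response called no gene, 0% of those tested. Aspa had the smallest p of the members here too, with a female minus male difference of -1.42 ± 0.54 in log2 fold change (adjusted p = 0.57), and 2 members had an unadjusted p under 0.05, Aspa and Tspan2, against 8.23% of all genes. DESeq2 and limma voom called 0 members (all genes 0.0143% and 0%). The median difference over the members was -1.09, and it was -0.66 without fentanyl female replicate 2 and -1.71 without replicate 1. With exposure as a term, no member passed the test between females and males by edgeR, where 0.056% of all genes did. The median female minus male difference was -0.05, and 0 members were under 0.05 before adjustment, against 2.52% of all genes. DESeq2 and limma voom called 0 (all genes 0.0418% and 0.084%). The direction of this median turned with single libraries. It was 0.20, with all 31 above 0, without fentanyl female replicate 2, and 0.06, 0.03 and 0.01 without saline male replicate 6, fentanyl male replicate 2 and saline male replicate 5. The lowest value was -0.19, with 30 of 31 below 0, without saline female replicate 2. Lpar1, a receptor for lysophosphatidic acid, had the smallest p, with 121 to 242 CPM (median 140.5) in fentanyl males, 68.6 to 204 CPM (median 115) in saline males, 117 and 50.5 CPM in fentanyl females and 162 and 166 CPM in saline females. Its log2 difference was -0.20 ± 0.33, smaller than its error.

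Within one exposure and one sex, the members differed. Saline males 9 to 12 (replicates 3 to 6) had higher levels than saline males 1 and 2 for 28 of 31 genes in the edgeR test, adjusted over all genes, and the other 3 had fold changes of the same sign. In this comparison 9.66% of all genes tested were called higher and 8.27% lower, 17.9% in all. The median log2 fold change was 1.36 over the members and 0.01 over all genes. The ranges of the 2 sets did not overlap for 29 of 31 members, against 22.2% of all genes in this direction. Because the list was chosen with earlier results of these data known, these counts describe it and are no independent test. The call rests on a set of 2. Without saline male replicate 1 or replicate 2, 0 members passed, with medians of 1.20 and 1.54 and with 6.92% and 1.09% of all genes called. Without saline male replicate 3, whose members were the lowest of the set of 4, 31 passed (22.8% of all genes). This library, number 9, had a mean log2 CPM of 7.23, nearer to number 2 (6.96) than to number 10 (8.13). The largest step in level thus lay inside the set of 4 and not between the sets. DESeq2 and limma voom called all 31 (20.5% and 31.9% of all genes), while 20 passed with no filter on low counts (9.24%) and 15 with the 6 saline males fitted alone (13.8%).

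**Figure D2:**
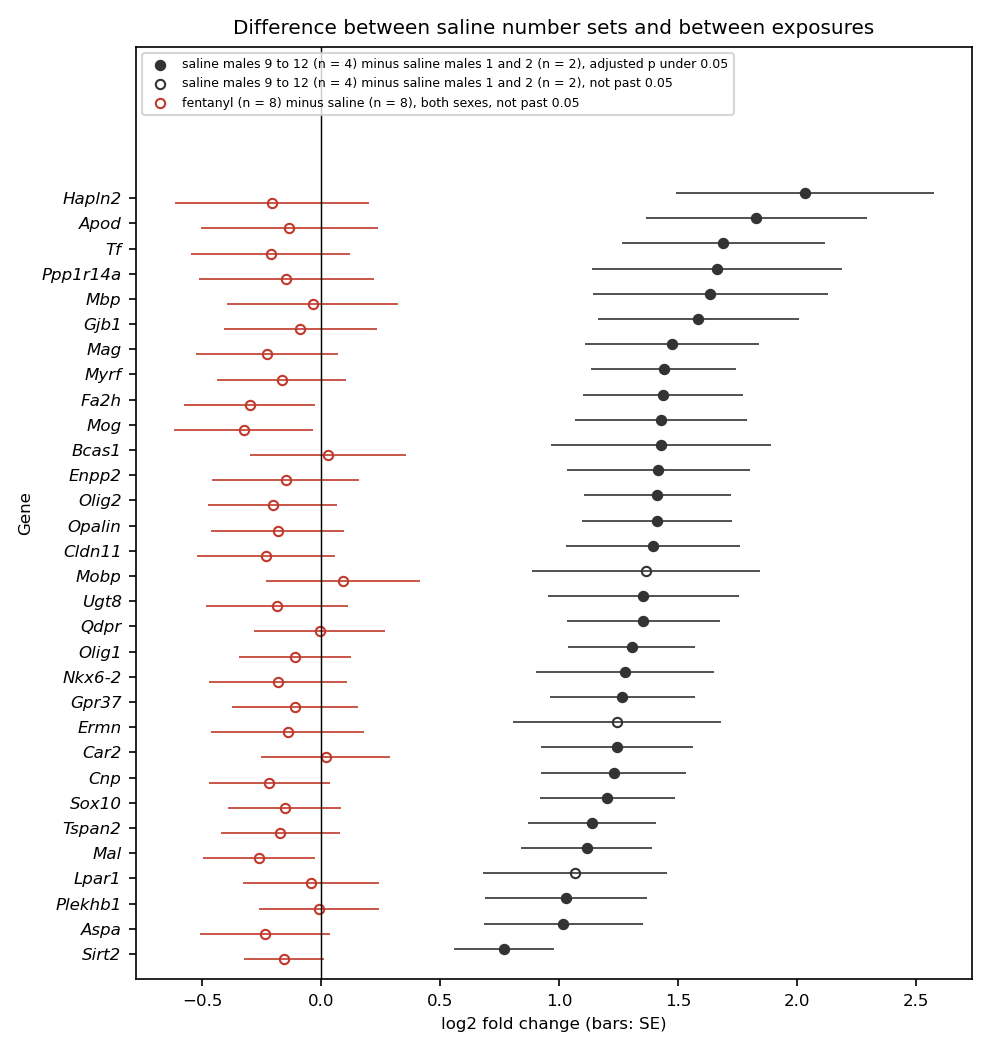
Log2 fold changes with standard errors for each of the 31 genes, in black for saline males 9 to 12 minus saline males 1 and 2 and in red for fentanyl minus saline over both sexes, with filled points past an adjusted p of 0.05. All black points lie between 0.77 and 2.03, and all red points are open and lie between -0.33 and 0.09.

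All 5 transcription factors were among the genes that passed. Olig1, a basic helix-loop-helix factor of the lineage, had 111 and 118 CPM in saline males 1 and 2 and 167, 274, 350.4 and 339.8 CPM in saline males 9 to 12, and the log2 fold change was 1.30 ± 0.27 (adjusted p = 0.00608), the smallest p of the 31. Its relative Olig2, which specifies the lineage, had 29.6 and 30.4 against 43.2, 78.9, 99.8 and 97.4 CPM (1.41 ± 0.31). For Myrf the values were 104 and 122 against 167, 303, 371 and 387 CPM, a 2.71-fold difference. In these 3 genes both libraries of the first set lay below all 4 of the second, and the nearest library was number 9 each time. Sox10, which with Olig2 keeps cells in the lineage, had 51.1 and 57.9 against 71.2, 124, 143 and 163 CPM (1.20 ± 0.28). Nkx6-2, a homeodomain factor of mature oligodendrocytes, had a log2 fold change of 1.28 ± 0.37.

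Of the 14 proteins of the sheath, its junctions and its cytoskeleton, 12 passed. Opalin, a glycoprotein of the oligodendrocyte surface, had 83.2 and 101 CPM in saline males 1 and 2 and 139, 212, 310.4 and 319 CPM in saline males 9 to 12 (log2 fold change 1.41 ± 0.31). Mag had 171 and 217 against 255, 532, 662 and 705 CPM (1.47 ± 0.37), and Mog 35.3 and 48.9 against 58.4, 102, 145 and 149 CPM (1.43 ± 0.36). In Opalin, Mag and Mog alike, number 1 was the lowest of the 6 libraries, number 12 the highest, and the 2 sets did not overlap. Cnp, a phosphodiesterase that keeps cytoplasmic channels in myelin open, had 334 and 432 against 501, 862, 1064 and 1161 CPM (1.23 ± 0.31). The largest fold of all members was that of Hapln2, at 86.2 and 93.6 against 150.4, 352, 432 and 536 CPM, 4.09-fold (log2 fold change 2.03 ± 0.54, adjusted p = 0.0191). Within the second set its values were far apart, lowest in number 9 and highest in number 12. Mbp (1.63 ± 0.49), Gjb1, the gap junction protein connexin 32 (1.58 ± 0.42), Cldn11, which forms the tight junctions of myelin (1.39 ± 0.37), Bcas1 (1.43 ± 0.46), Tspan2 (1.14 ± 0.27), Mal (1.11 ± 0.28) and Plekhb1, a pleckstrin homology domain protein (1.03 ± 0.34), passed as well.

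Mobp and Ermn did not pass. Mobp had 1221 and 1801 CPM in saline males 1 and 2 and 1776, 3649, 4349 and 5776 CPM in saline males 9 to 12, a log2 fold change of 1.36 ± 0.48 (adjusted p = 0.0617). Number 9 lay just below number 2, so the sets overlapped. Ermn had 70.8 and 83.8 against 103, 178, 229 and 224 CPM without overlap (1.24 ± 0.44, adjusted p = 0.0611).

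Promoter sequences of 22 of the 31 members were found in a RefSeq table of assembly GRCr8 by gene symbol. They are shown for the 4 members whose 250 bases before the annotated start hold both the SOX core ACAAAG and the MYRF motif CTGGCAC. The motifs were chosen because Sox10 and Myrf are themselves members, and regulation of the others by them was not tested. Capitals mark these motifs on either strand, so that CTTTGT and GTGCCAG are the same motifs read on the other strand.
Mag: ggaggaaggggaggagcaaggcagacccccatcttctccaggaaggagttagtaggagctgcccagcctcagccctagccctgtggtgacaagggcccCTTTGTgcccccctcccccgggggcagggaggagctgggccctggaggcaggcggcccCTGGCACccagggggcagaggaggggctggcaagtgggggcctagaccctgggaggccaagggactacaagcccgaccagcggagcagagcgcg
Cnp: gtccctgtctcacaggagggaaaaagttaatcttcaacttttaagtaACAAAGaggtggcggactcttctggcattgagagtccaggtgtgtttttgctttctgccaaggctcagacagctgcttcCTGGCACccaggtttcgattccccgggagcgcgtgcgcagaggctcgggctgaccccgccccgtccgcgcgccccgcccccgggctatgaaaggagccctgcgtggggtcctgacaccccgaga
Opalin: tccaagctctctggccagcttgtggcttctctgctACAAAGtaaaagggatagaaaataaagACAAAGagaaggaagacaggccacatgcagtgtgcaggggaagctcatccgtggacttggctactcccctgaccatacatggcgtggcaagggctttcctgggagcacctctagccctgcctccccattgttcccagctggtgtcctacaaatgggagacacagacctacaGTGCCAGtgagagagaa
Hapln2: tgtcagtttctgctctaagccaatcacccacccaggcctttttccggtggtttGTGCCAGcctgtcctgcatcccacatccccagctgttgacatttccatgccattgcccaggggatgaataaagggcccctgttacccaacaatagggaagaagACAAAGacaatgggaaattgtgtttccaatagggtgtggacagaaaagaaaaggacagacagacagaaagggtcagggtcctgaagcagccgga

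These windows lie at chr1:95291045-95291294, minus strand (Mag), chr10:86011254-86011503, plus strand (Cnp), chr1:249858191-249858440, minus strand (Opalin) and chr2:175794439-175794688, minus strand (Hapln2) of GRCr8, each printed 5′ to 3′ along its gene. The motifs do not overlap each other in them, and Opalin holds the SOX core at 2 places. ACAAAG was present in 6 of the 22 members with a sequence and in 16.3% of all 33469 promoters of the table, and CTGGCAC in 6 of 22 and in 3.78%, with both strands searched. The share of all promoters that hold both motifs was not counted, so the members shown have no background beside them. A match describes the letters of the window and says nothing of binding in this tissue. No sequence was found for Mog, Ermn, Bcas1, Myrf, Sox10, Olig1, Car2, Enpp2 and Lpar1.

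All 7 enzymes and regulators passed. Fa2h, which hydroxylates the fatty acids of myelin galactolipids, had a log2 fold change of 1.44 ± 0.34. Ugt8, which adds galactose to make those lipids, had 76.6 and 95.8 CPM in saline males 1 and 2 and 113, 222, 261 and 285 CPM in saline males 9 to 12 (1.35 ± 0.40). The folds of these 2 genes were 2.70 and 2.55, and the sets did not overlap in either gene. Qdpr, which recycles tetrahydrobiopterin (1.35 ± 0.32), Car2 (1.24 ± 0.32), Aspa (1.02 ± 0.34) and Ppp1r14a, an inhibitor of myosin phosphatase (1.66 ± 0.52), differed in the same direction. The smallest fold of the 31 was that of Sirt2, at 155 and 162 against 171, 271, 314 and 323 CPM, 1.70-fold (log2 fold change 0.77 ± 0.21, adjusted p = 0.0205).

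Secreted proteins and receptors complete the list. Apod, a lipid-binding apolipoprotein, had 79.3 and 105 CPM in saline males 1 and 2 and 127, 344, 388 and 452 CPM in saline males 9 to 12, 3.55-fold (log2 fold change 1.83 ± 0.47). Tf, the iron carrier transferrin, had a log2 fold change of 1.69 ± 0.43. Enpp2, the enzyme autotaxin that makes lysophosphatidic acid outside cells, had 98.8 and 129 against 161, 288, 364 and 402 CPM (1.42 ± 0.38). All 3 passed, without overlap of the sets. Tf and Enpp2 are also products of the choroid plexus. The 12 choroid plexus markers together summed to 5.81 to 10.8 CPM in saline males 9 to 12 and 5.504 to 8.579 CPM in saline males 1 and 2. Of the 3 that could be tested 1 was higher, Slc4a5, a bicarbonate transporter (1.37 against 4.22 CPM, log2 fold change 1.61 ± 0.38), and the median of the 3 was 1.45. The defining marker Ttr had no count in 14 of 16 libraries, and the part of this tissue in the values of Tf and Enpp2 was not tested. Of the receptors, Gpr37, an orphan receptor of oligodendrocytes, passed (1.26 ± 0.30). Lpar1, the receptor for the product of Enpp2, did not, at 68.6 and 80.7 against 77.4, 150.2, 194 and 204 CPM (1.07 ± 0.39, adjusted p = 0.0682), and number 9 lay between numbers 1 and 2.

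Other genes of the lineage were compared between the same sets, where 9.66% of all genes were called higher and 8.27% lower. Of 52 further genes of mature oligodendrocytes, 42 were higher and none lower in saline males 9 to 12, with a median log2 fold change of 1.20. Those with the smallest p were Zfp488, a zinc finger factor of oligodendrocytes (7.62 against 21.8 CPM, log2 fold change 1.51 ± 0.27), and Galnt6, a glycosyltransferase (9.53 against 52.5 CPM, log2 fold change 2.46 ± 0.45). Of 18 precursor markers 9 were higher and 1 lower (median 0.51), and of 16 markers of newly formed oligodendrocytes 6 were higher and 1 lower (median 0.52). The medians lay at lower values than that of the members, and this difference was not tested. The called genes of lower level were Dcc, an axon guidance receptor in the precursor list (76.0 against 42.9 CPM, log2 fold change -0.82 ± 0.16), and Cyfip2 (1674 against 931 CPM, log2 fold change -0.85 ± 0.25), a cytoskeletal regulator, both of which neurons express as well. Of 18 myelin lipid genes 9 were higher, among them Gltp, a glycolipid transfer protein (27.8 against 65.2 CPM, log2 fold change 1.23 ± 0.28). Of 22 cholesterol synthesis genes 4 were higher, with Lss, lanosterol synthase, in front (41.0 against 68.0 CPM, log2 fold change 0.73 ± 0.11). Of 21 signals and brakes of differentiation 7 were higher, led by Lgi3 (75.1 against 208 CPM, log2 fold change 1.47 ± 0.26), a secreted protein of oligodendrocytes.

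Markers of other cell types also differed between the 2 sets, and the shares of all genes called, 9.66% higher and 8.27% lower, stand beside these counts too. Astrocyte markers were higher in 9 of 17 (median 0.51) and microglial markers in 5 of 18 (median 0.43). Of 15 endothelial markers none passed by edgeR, with 0 at an unadjusted p under 0.05. Striatal markers went the other way, with 19 of 21 lower and all 21 below 0 (median -1.22). Their summed level was 4075 to 6984 CPM in saline males 9 to 12 and 12161 to 15803 CPM in saline males 1 and 2. Central amygdala markers were higher in 2 and lower in 3 of 16. General neuron markers were higher in 5 of 16 (median 0.22), ependymal markers lower in 1 of 9 and meningeal markers higher in 1 of 11. The part of tissue make-up in the members' difference was not tested.

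**Figure D3:**
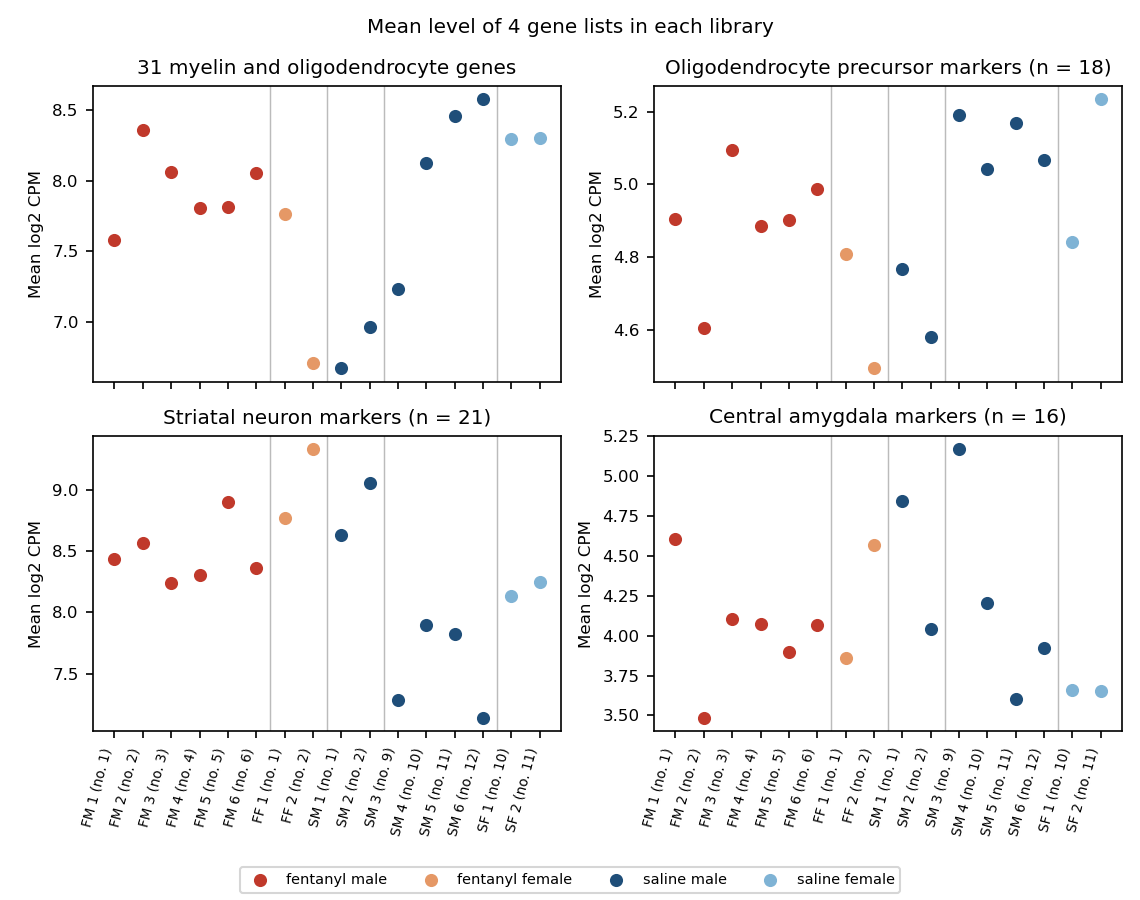
Mean log2 CPM of the 31 genes and of 3 marker lists in each library, with colours for the 4 groups (FM and FF fentanyl males and females, SM and SF saline males and females, replicate and library number) and grey lines dividing the groups and the 2 sets of saline males. Fentanyl female replicate 2 is low for the 31 genes (6.70) and highest for striatal markers (9.33), while saline male replicate 3 is low for both (7.23 and 7.28) and highest for central amygdala markers (5.17).

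Library by library, the means of the members and of the striatal markers stood as follows. Fentanyl female replicate 2 and saline male replicate 2 had the 2 highest striatal means (9.33 and 9.05) and were among the 3 lowest for the members. Saline male replicate 6 had the lowest striatal mean (7.14) and the highest mean of the members (8.58). Saline male replicate 3 had the second lowest striatal mean (7.28), the fourth lowest mean of the members and the highest central amygdala mean (5.17). The part of tissue make-up in these levels was not tested. Fentanyl male replicates 1 and 2 had member means of 7.58 and 8.36, the lowest and the highest of the fentanyl males. They carry the library numbers of saline males 1 and 2, and the part of these numbers was not tested.

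One library shifted the members unevenly. In fentanyl male replicate 2, 23 of 31 genes lay above all 5 other fentanyl males, 7 lay among them and 1 lay below. Hapln2 had 645 CPM against 153 to 273 CPM in the other 5, 2.72 times their median. Mbp (18552 CPM against 5983 to 9719 CPM), Mobp (7098 CPM against 2454 to 3579 CPM), Bcas1 (981 CPM against 337 to 502 CPM) and Ppp1r14a (125 CPM against 34.9 to 57.6 CPM) were all far above the other 5 as well.

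Other members did not share this shift. Ermn, at 108 CPM against 150.2 to 204 CPM, was below all 5, and Mog, at 81.2 CPM against 70.0 to 106 CPM, Ugt8, at 179.8 CPM against 144 to 221 CPM, and Tf, at 1125 CPM against 830.3 to 1272 CPM, lay among them. The standard deviation of the shift over the 31 genes, in log2 units from each gene's mean, was 0.43 in this library and 0.10 to 0.29 in the other 15. The next most uneven was fentanyl female replicate 2 (0.29), where Ermn was lowest and Sirt2 highest relative to their means. Fentanyl male replicate 2 also had the highest mitochondrial share (17.7% against 8.44% to 12.8%), the highest endothelial mean (4.83 log2 CPM) and the lowest central amygdala mean (3.48). The part of RNA quality or tissue make-up in this pattern was not tested. Without this library, 0 members passed by exposure over both sexes (0.0616% of all genes), and the median of the members was -0.23. In the saline male comparison, whose groups do not include it, 30 members passed without it (23.7% of all genes).

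**Figure D4:**
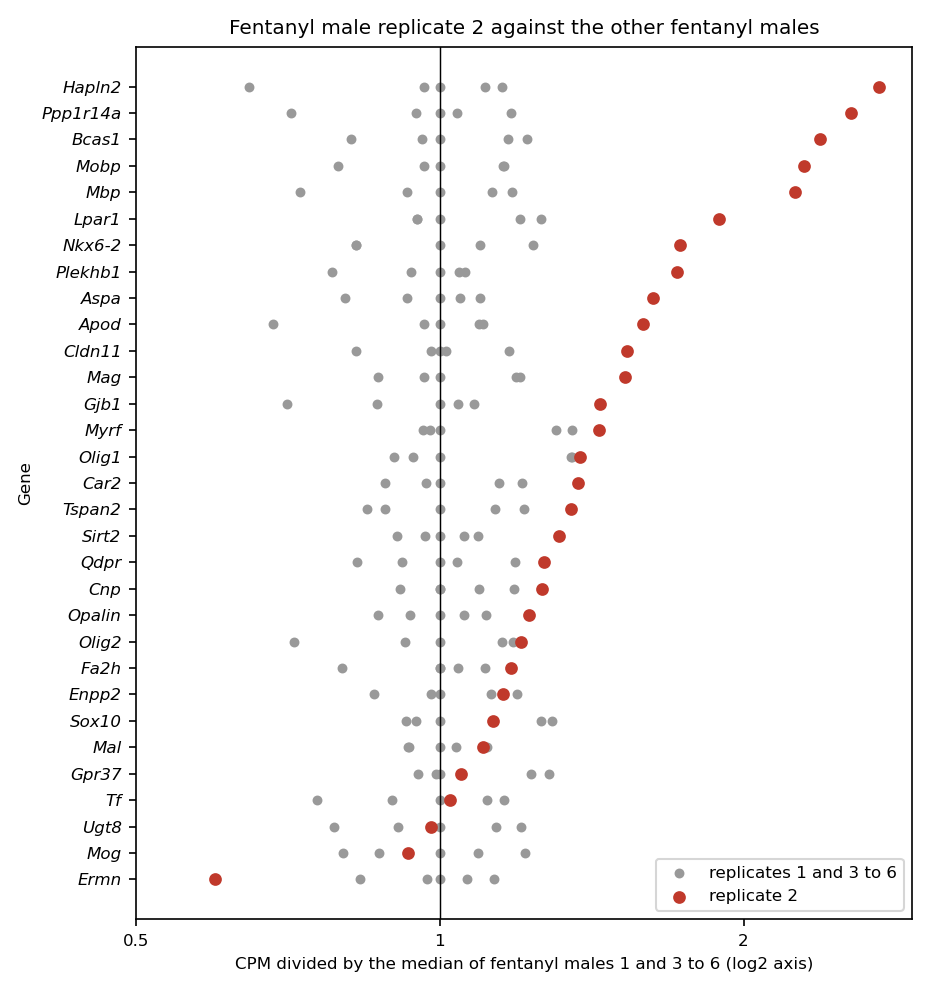
CPM of each gene in the 6 fentanyl males, divided by the median of replicates 1 and 3 to 6, on a log2 axis, with replicate 2 in red and the other 5 in grey. Replicate 2 runs from 0.599 times that median for Ermn to 2.72 times for Hapln2, while the other 5 libraries of Hapln2 lie between 153 and 273 CPM.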

How the data were processed

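Poly(A) RNA of 16 rat brain samples was sequenced, and the authors deposited whole-number read counts per gene, 1 column per library. Trimmomatic, STAR, HTSeq, DESeq2 and the build rn7 are named per the submitters' processing notes; the sources used here do not give versions, annotation or strand setting, so overlapping or antisense genes may share reads. Columns were matched to samples by library name. The smallest chi-square per gene over 120 pairs of libraries was 4.08, so no pair was within sampling noise.

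The low-count filter was edgeR's filterByExpr on the 4 groups (about 0.603 CPM). Counts were scaled by TMM and fitted with a robust quasi-likelihood model (edgeR 4.0.16, R 4.3.3), with sex as a term over both sexes, as contrasts of the 4 groups within sex, and with saline males divided by library number for the number sets. Log2 fold changes have standard errors from the fold change over the root of its F statistic. Adjustment was Benjamini-Hochberg over all 17856 genes, with a threshold of 0.05. Log2 CPM used a prior count of 2. Alternatives were RLE factors, no filter, DESeq2 1.42.0, limma voom 3.58.1 with quality weights, no sex term, the replicate block, subsets of libraries and each library left out. Fits were tested on simulated counts with genes changed 1.5-fold, 2-fold and 4-fold: over both sexes 61.2%, 79.1%, 98.5% were recovered (17640 genes), in males 40.3%, 74.6%, 100% (17645 genes), in females 2.99%, 26.9%, 77.3% (17634 genes), and for the saline male sets 4.48%, 52.2%, 87.9% (17629 genes). The changed genes were picked at random from expressed genes, and each gene varied independently. The members moved together and varied more than the typical gene (median standard deviation within groups 0.61 against 0.29). Recovery of changes in the members was not simulated and may be lower.

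The members and lists were chosen with earlier results of these data known. All members are named; values by library are given for members chosen by role and for the smallest p of each comparison, and the uneven library and its genes, the extreme members Hapln2 and Sirt2, and the members that missed the threshold were chosen after their values were seen. From other lists up to 2 genes past the threshold with the smallest p, and single genes of the opposite direction, were named. One of the marker lists is not reported here.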

Additional observations from a re-analysis of the deposited data

Results flagged for a closer look

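In fentanyl male replicate 2, 8 of the 31 genes stood apart from the other fentanyl males by more than Dixon's 95% critical value for 6 samples. They were Mbp at 18552 CPM, Mobp at 7098 CPM, Hapln2 at 645 CPM, Plekhb1 at 563 CPM, Bcas1 at 981 CPM, Aspa at 64.6 CPM, Ppp1r14a at 125 CPM and Lpar1 at 242 CPM. No member stood apart in saline males by this measure. Of 62 groups examined (31 genes in 2 groups of 6), chance flags about 1 in 20, or 3.10, and the 8 all share 1 library and so are not independent.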

How the results depend on the processing

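No member was called for exposure, for the response by sex or for sex under any alternative except that in males without saline males 9 to 12, where 19 were called and the median was 1.12. Mog over both sexes then had a log2 fold change of 0.090, opposite to the full set, and Lpar1 by sex ran from -0.37 (without saline female replicate 2) to 0.10 (without fentanyl female replicate 2). Without saline males 1 and 2 the median over both sexes was -0.45 and without 9 to 12 0.22. In the saline male sets 28 members passed, and 31 by DESeq2 or limma voom. Without the filter 20 passed, and 15 with the 6 saline males fitted alone. That last fit took its spread from those 6 libraries alone and tested 15306 genes. The cause of its lower count was not tested. With 1 library left out, 0 to 31 members passed, with medians of 1.19 to 1.62; all 31 kept their sign in each of these runs. A lone library in a set is assumed to vary like the other groups.

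Counts over all genes moved as well. Over both sexes 14 genes were called, 87 by DESeq2, 1006 by limma voom, 1226 without saline males 1 and 2, 4 without 9 to 12, and 9 to 29 with 1 library left out. In males the 7 calls became 42, 84, 71 and 955 in the same order, and 4 to 9 with 1 left out. In females 0 became 20 by DESeq2, 65 with females alone and 0 to 5 with 1 left out, where the members' median ran from -1.60 to -0.52. For the response by sex 0 became 4 by DESeq2 and 0 to 5 with 1 left out, with medians from -1.71 to -0.66. The saline male sets had 3201 calls, 5701 by limma voom, 2116 with saline males alone and 193 to 4229 with 1 left out. The causes were not tested.

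Replicates of the 2 exposures with the same replicate number were compared: 2 of 8 pairs had deviations correlated above 0.1 and 1 correlated best with its own number. With 2 females per group, both female pairs necessarily give the same value (-0.17). Library numbers matched only for male replicates 1 and 2. The check therefore cannot settle whether replicates were paired. With a replicate block 2 genes were called over both sexes, 3 in males, and 0 in females and for the response by sex, with 0 members in each; exchanging the numbers of the saline females, chosen after seeing the data, also gave 0 calls in females.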
